A study of Mus musculus with 4 samples.

Results

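The circadian clock genes described here are the 10 genes Per1, Per2, Per3, Cry1, Cry2, Nr1d1, Nr1d2, Dbp, Clock and Bmal1, chosen by their symbols in a table of 56748 genes, where Bmal1 is listed under its older symbol Arntl. All 10 were found, and all 10 passed the filter on low counts that left 15167 genes to be tested. Bulk RNA sequencing had been performed on lungs of female BALB/cJ mice, which were 7 weeks old when mouse triple-negative breast cancer (TNBC) 4T1-FLuc cells were injected into the tail vein. After metastases had been detected, 1 group received saline, named as a PBS control in the sample labels, and the other received cmLumiOpto/PARPi. cmLumiOpto is a light-driven channel for the mitochondrial membrane, made together with a luciferase as its light source from a vector carried by exosomes with an antibody against CD276, and the PARP inhibitor (PARPi) was olaparib. Each group was sequenced in 2 libraries, and no library of either agent alone was among them, so the contributions of the vector and of olaparib cannot be told apart. All mice carried 4T1 cells, and no lung without tumour was included. The sources used here do not say whether each library came from 1 mouse or from several, so the p-values measure only the spread between these libraries. The clock time at which the lungs were collected was not given in the sources used here either. The question was whether the groups differed in clock gene RNA in a way that a shift of the clock between them would give.

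The mammalian clock is a feedback loop of transcription that runs in nearly every cell. CLOCK and BMAL1 form a dimer that binds E-boxes and activates the Per and Cry genes, whose proteins return to the nucleus and repress that dimer. In a second loop the nuclear receptors REV-ERBα and REV-ERBβ (Nr1d1 and Nr1d2) repress Bmal1 through RORE elements, while DBP activates further genes through D-boxes. Genes under E-boxes and D-boxes and genes under ROREs therefore peak at different times of day, Bmal1 roughly opposite to Nr1d1 and Dbp. In the lung, airway cells carry a strong clock, and glucocorticoids act on it through Per1, which they induce directly.

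The promoter stretches below are shown because they carry the letters of E-boxes or D-boxes, the kinds of motif named above. Only letters were matched, and whether clock proteins bind or act at these sites was not tested. RefSeq promoters, taken as 250 bases before to 50 bases after an annotated start on GRCm38.p6, were matched for 9 of the 10 members, 13 promoters in all. Both strands were searched for the E-box CACGTG, the related E'-box CACGTT, the D-box as TTATGTAA or TTACGTAA, the RORE core AGGTCA and the cAMP response element TGACGTCA. These letters occurred in 7.15%, 4.68%, 0.938%, 0.119%, 16.3% and 1.79% of 32851 promoters of the same length, respectively. Capitals mark the E-box, E'-box or D-box, every stretch ends before the annotated start and lies outside annotated exons, and an E'-box on the opposite strand reads AACGTG. The stretches lie at chr11:69098763-69098808 (plus strand, Per1), chr4:151044796-151044890 (minus strand, Per3), chr10:85185089-85185153 (minus strand, Cry1), chr2:92434210-92434255 (minus strand, Cry2) and chr11:98775380-98775425 (minus strand, Nr1d1).
Per1: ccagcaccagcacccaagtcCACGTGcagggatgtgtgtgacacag
Per3: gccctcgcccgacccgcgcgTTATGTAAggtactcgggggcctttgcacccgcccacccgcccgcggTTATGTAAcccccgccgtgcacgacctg
Cry1: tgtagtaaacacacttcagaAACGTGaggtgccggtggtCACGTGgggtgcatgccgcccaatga
Cry2: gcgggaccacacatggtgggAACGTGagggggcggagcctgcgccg
Nr1d1: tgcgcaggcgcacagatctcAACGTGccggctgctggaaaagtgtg

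Per1 and Cry1 held an E-box, Cry1, Cry2 and Nr1d1 an E'-box, and Per3 held 2 D-boxes, the motif that is rarest over all promoters among those found. The RORE core was found in promoters of Per1, Nr1d2, Clock and Bmal1, and the cAMP response element in none of the 13. None of the E-box, E'-box and D-box letters was found in the windows of Nr1d2, Dbp, Clock or Bmal1, which says only that they are not in these windows.

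The libraries held 15263375 to 16755228 gene counts, and the 10 clock genes had between 50 and 1796 counts in a library. Levels are given as CPM, counts scaled to library size after TMM normalization. Most markers of lung epithelium were higher in both treated libraries. The summed CPM of 6 airway club and ciliated cell genes was 1154 and 82.2 in the saline libraries against 5696 and 2986 after treatment, and that of 5 alveolar type 2 cell genes was 1551 and 403 against 7681 and 2716. Of these, all 6 airway genes and 4 of the 5 alveolar genes were higher in both treated libraries, while Abca3 was lower, at 147 and 129 against 125 and 94.0 CPM. The 5 fibroblast genes were lower after treatment, with 3680 and 2493 CPM in the saline libraries against 1099 and 1218. Krt8, Krt18, Krt14, Epcam and Cd276 were taken as markers of the 4T1 carcinoma epithelium, the cells that the labels name. Their sums overlapped, at 2393 and 2870 CPM in the saline libraries against 2038 and 3191 CPM after treatment. These genes were not shown to be absent from lung epithelium, so their sum does not measure tumour content. That sum was mostly Krt8 and Krt18, and Krt14 (54.1 and 44.0 against 42.9 and 43.6 CPM) and Cd276, the antibody's target (110 and 101 against 76.7 and 85.4 CPM), were lower in both treated libraries. In such bulk samples fewer cells of a type and less RNA per cell cannot be told apart, and the part of cell composition in the results for the clock genes was not tested.

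No clock gene passed an adjusted p of 0.05 between cmLumiOpto/PARPi and saline, and neither did any of the 15167 genes (0%), with a smallest adjusted p of 0.138 over all genes and 0.151 over the clock genes (edgeR quasi-likelihood, Benjamini-Hochberg). At an unadjusted p under 0.05 there were 2 clock genes, Per1 and Bmal1, both lower after treatment, where 21.2% of all genes reached that level, 9.21% higher and 12% lower. The libraries of the groups did not overlap in 4 clock genes, where both treated values lay below (Per1, Bmal1 and Nr1d1) or above (Dbp) both saline values. Over all genes 55.2% did so, 27.4% higher and 27.8% lower, so the share of 40% among the clock genes was not above that of the table as a whole. With 2 libraries against 2, an exact permutation of the libraries cannot give a two-sided p below 0.333. The median log2 fold change of the 10 genes was -0.20, against 0.02 for all genes, and their median absolute log2 fold change was 0.38, against 0.33.

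**Figure D1:**
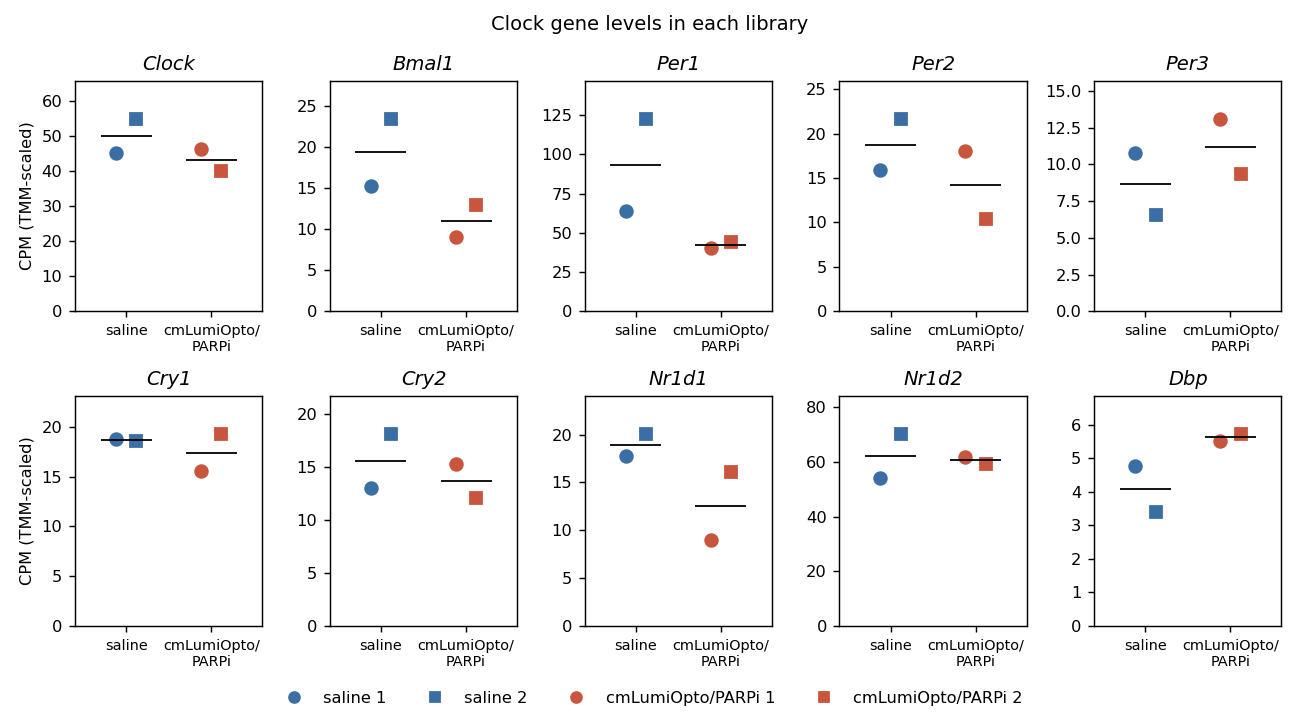
Level of each clock gene in CPM (vertical axes from 0, scaled per gene) in the 2 saline (blue) and 2 cmLumiOpto/PARPi (red) libraries, circles for replicate 1, squares for replicate 2 and bars for group means. In Per1, Bmal1 and Nr1d1 both red points lie below both blue points, in Dbp both lie above, and in the other 6 genes the groups overlap.

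The activators of the loop were Clock and Bmal1. Bmal1, the partner of CLOCK in the dimer, had 15.3 and 23.4 CPM in the saline libraries and 9.10 and 12.9 CPM after cmLumiOpto/PARPi. All the treated values lay below the saline values, but the gap between the nearest libraries of the 2 groups was smaller than the gap within the saline group. The log2 fold change was -0.82 (standard error 0.31, 95% interval -1.57 to -0.06), with an unadjusted p of 0.0386 and an adjusted p of 0.215 from edgeR. Without saline replicate 2, the library with the most Bmal1, it was -0.49 (adjusted p = 0.647), and without saline replicate 1 it was -1.10 (adjusted p = 0.140). In edgeR without the filter on low counts it was -0.83 (adjusted p = 0.0438), which passes, as did 7.86% of the 25435 genes of that fit. With DESeq2 on the 15167 filtered genes it was -0.81 (adjusted p = 0.166). Bmal1 lies on chromosome 7 from 112806672 to 112913333 (ENSMUSG00000055116; positions are those of the deposited table, for which the submitters' processing notes name mm39). Clock itself, on chromosome 5 from 76357715 to 76452639 (ENSMUSG00000029238), had 45.2 and 54.8 CPM in the saline libraries and 46.3 and 40.0 CPM after treatment. These groups overlapped, with a log2 fold change of -0.21 (95% interval -0.63 to 0.21, adjusted p = 0.501), an interval that leaves out a change of 2-fold in either direction.

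Among the repressors, Per1 showed the lowest fitted log2 fold change of the 10 genes. It encodes a partner of the cryptochromes in the repressor complex and is also switched on rapidly by cAMP signals and glucocorticoids. Its level was 63.7 and 122 CPM in the saline libraries and 40.5 and 44.0 CPM in the treated libraries. Both treated libraries were lower and close to each other, while the saline libraries differed 1.92-fold. The log2 fold change was -1.14 (standard error 0.31, 95% interval -1.90 to -0.38), with an unadjusted p of 0.0109 and an adjusted p of 0.151 from edgeR. It stood at place 1096 of 15167 genes by p and at place 1123 by size. The call depended on single libraries: without saline replicate 1 the log2 fold change was -1.55 (adjusted p = 0.0438), and without saline replicate 2 it was -0.61 (adjusted p = 0.427). DESeq2 on the same 15167 genes, an alternative chosen after seeing the data, gave -1.14 (adjusted p = 0.0134), where 6.67% of all genes passed. The edgeR fit without the filter on low counts gave -1.15 (adjusted p = 3.05e-07), where 7.86% of 25435 genes passed. Per1 lies on chromosome 11 from 68986043 to 69000786 (ENSMUSG00000020893).

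The other Per genes gave no such separation. Per2, on chromosome 1 from 91343704 to 91387046 (ENSMUSG00000055866), a core repressor of the loop, had 15.9 and 21.6 CPM in the saline libraries and 18.1 and 10.4 CPM after treatment. The treated libraries differed 1.74-fold and lay on both sides of the lower saline library, and the log2 fold change was -0.39 (95% interval -1.20 to 0.41, adjusted p = 0.517). Per3, on chromosome 4 from 151088109 to 151129122 (ENSMUSG00000028957), the member with 2 D-boxes in its promoter, had 10.8 and 6.54 CPM against 13.1 and 9.33 CPM. Its groups overlapped as well, with a log2 fold change of 0.37 (95% interval -0.48 to 1.22, adjusted p = 0.568) that was opposite in sign to those of Per1 and Per2.

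Cry1 and Cry2 encode the cryptochromes, which carry the main repressor activity of the complex. Cry1, on chromosome 10 from 84967564 to 85020928 (ENSMUSG00000020038), had 18.8 and 18.5 CPM in the saline libraries and 15.5 and 19.3 CPM after treatment, the narrowest spread of the 10 genes in the saline group. Its log2 fold change was -0.10 (95% interval -0.61 to 0.41, adjusted p = 0.806). Cry2, on chromosome 2 from 92233991 to 92264388 (ENSMUSG00000068742), had 13.0 and 18.1 CPM against 15.3 and 12.03 CPM, with a log2 fold change of -0.19 (95% interval -0.84 to 0.46, adjusted p = 0.712). Both intervals leave out a 2-fold change. The libraries of the groups were interleaved in both genes.

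Of the REV-ERB genes, Nr1d1 was lower in both treated libraries and Nr1d2 was not separated. Nr1d1, on chromosome 11 from 98658758 to 98666159 (ENSMUSG00000020889), had 17.8 and 20.03 CPM in the saline libraries and 8.98 and 16.1 CPM after treatment. The treated libraries differed 1.79-fold, and the higher of them was close to the lower saline library. The log2 fold change was -0.59 (standard error 0.32, 95% interval -1.37 to 0.19, adjusted p = 0.329). Nr1d2, on chromosome 14 from 4230569 to 4265642 (ENSMUSG00000021775), had 54.1 and 70.1 CPM in the saline libraries and 61.8 and 59.3 CPM in the treated libraries, both between the saline values. Its log2 fold change was the smallest of the 10 in size, -0.04 (95% interval -0.45 to 0.38, adjusted p = 0.926).

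Dbp encodes a D-box activator whose RNA cycles strongly under E-box control. It had 4.77 and 3.41 CPM in the saline libraries and 5.53 and 5.72 CPM after cmLumiOpto/PARPi (chromosome 7 from 45354512 to 45359627, ENSMUSG00000059824). The treated libraries were nearly equal and both above the saline libraries, yet the counts were the lowest of the set (76, 50, 96 and 95), and the log2 fold change of 0.46 had a wide interval (-0.38 to 1.30, adjusted p = 0.469). Annotated exons of Dbp and of the opposite-strand gene Sphk2 shared 539 bases, 18% of Dbp, and those of Nr1d1 and the opposite-strand gene Thra shared 263 bases, 8.55% of Nr1d1. Whether the counting used strand was not given in the sources used here, so the levels of these 2 members are uncertain to that extent. Sphk2 had 319 to 511 counts and Thra 851 to 1028 counts in a library.

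**Figure D2:**
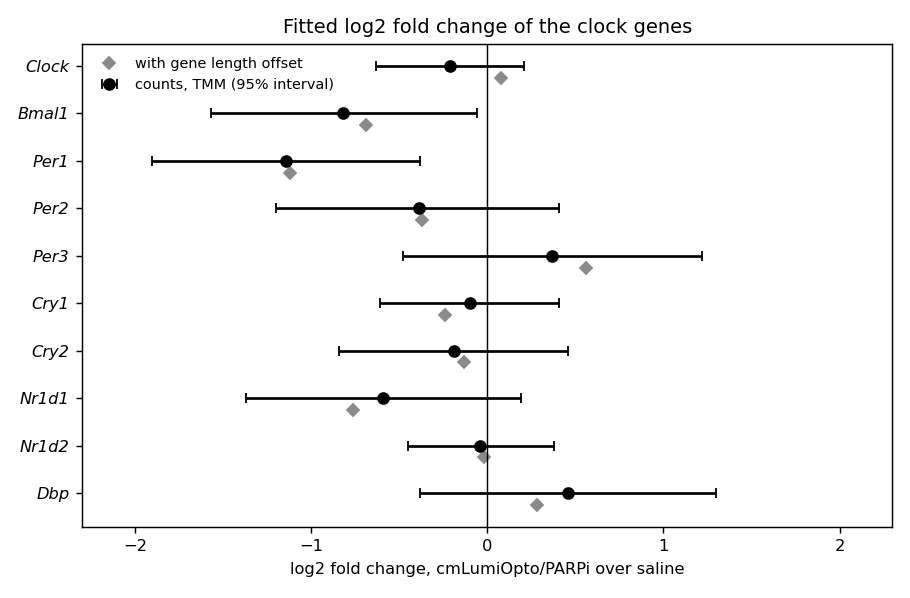
Fitted log2 fold change of each clock gene, cmLumiOpto/PARPi over saline (horizontal axis), with its 95% interval in black, and the value with a gene length offset in grey. The intervals of Per1 (-1.90 to -0.38) and Bmal1 (-1.57 to -0.06) lie below 0 and the other 8 include 0.

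The spread between libraries of the same group was large beside these differences. In 8 of the 10 clock genes the larger of the 2 within-group differences exceeded the fitted difference between the groups on the log2 scale. The same held for 9 of 10 other clock transcription factors and 9 of 19 clock kinases, phosphatases and ubiquitin enzymes. It held for 8 of 12 clock-controlled outputs and 5 of 9 glucocorticoid-responsive genes, lists described below. The share over all genes was not determined. Between the saline libraries the median absolute log2 difference of the clock genes was 0.45, against 0.25 over all genes, and between the treated libraries it was 0.32, against 0.25. Saline replicate 2 had the higher level in 7 of the 10 genes, among them Per1 (by 0.94 on the log2 scale), Bmal1 (by 0.61), Cry2 (by 0.47) and Per2 (by 0.44). It had the lower level of Per3, with a difference of -0.71, and of Dbp, with -0.47. The share of all genes higher in saline replicate 2 was not determined. The saline libraries thus differed from each other most in Per1 and Per3, in opposite directions.

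Per length, the levels of the 10 genes, as means over the 4 libraries, went from Per1 with a mean of 35.4 TPM (counts scaled by gene length and library size) and Nr1d2 with 32.8 TPM down to Per3 with 2.97 TPM. Cry1 (15.6 TPM), Nr1d1 (14.9 TPM), Clock (9.85 TPM), Per2 (8.20 TPM), Cry2 (6.70 TPM), Bmal1 (5.91 TPM) and Dbp (4.65 TPM) lay between them in that order. Nr1d2 exceeded Cry1 without overlap of their ranges, and each other pair of neighbours overlapped. Per1 was above Nr1d2 in both saline libraries (34.5 and 66.1 TPM against 30.5 and 39.4 TPM) and below it in both treated libraries (19.7 and 21.4 TPM against 31.3 and 30.1 TPM).

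A shift of the clock would be read from genes of opposite phase within a library, as ratios that hardly depend on how libraries are scaled. The ratios are not corrected for the relation with gene length that is given further below. The log2 ratio of Dbp to Bmal1 was -1.66 and -2.73 in the saline libraries and -0.71 and -1.15 after treatment, higher in both treated libraries by 1.27 on average, where the saline libraries differed by 1.08. The ratio of Per3 to Bmal1 was -0.50 and -1.82 against 0.52 and -0.46, and that of Nr1d2 to Bmal1 was 1.81 and 1.58 against 2.75 and 2.19, both higher in the treated libraries too. These 3 ratios share Bmal1, so they are not independent of each other. Dbp to Npas2, the relative of Clock under ROREs, was higher in both treated libraries as well (2.12 and 2.02 against 3.42 and 2.43). The group means differed by 0.86, where the treated libraries differed by 1.00. Npas2 had few counts, 16 and 11 in the saline libraries and 7 and 16 after treatment, and its own groups overlapped. Dbp to Per1 was -3.71 and -5.12 in the saline libraries against -2.85 and -2.92 after treatment, so each of these ratios without overlap holds Dbp or Bmal1. Dbp by itself lay above, and Bmal1, Per1 and Nr1d1 each below, in both treated libraries. The ratios of Dbp to those genes therefore had to be higher without overlap and add nothing to the single genes. How often ratios of any 2 genes separate the groups was not determined. Nr1d1 to Bmal1, the pair in direct feedback, overlapped between the groups (0.21 and -0.22 against -0.02 and 0.32), and so did Per1 to Bmal1 (2.05 and 2.38 against 2.14 and 1.76) and Per2 to Bmal1 (0.05 and -0.11 against 0.98 and -0.30). Dbp and Nr1d1, which usually peak close together, differed in direction, and their log2 ratio was -1.87 and -2.51 in the saline libraries and -0.69 and -1.47 after treatment.

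The mean log2 CPM over 10 genes of the E-box and D-box arm (Dbp, Tef, Hlf, Nr1d1, Nr1d2, Per1, Per2, Per3, Ciart and Bhlhe41) was 4.19 and 3.95 in the saline libraries against 4.02 and 3.78 after treatment, which overlapped. That over 5 genes of the RORE arm (Bmal1, Clock, Npas2, Nfil3 and Cry1) was 3.88 and 4.03 against 3.34 and 3.79, lower in both treated libraries. The arms were set by list, not by the letters found in the promoter windows. Cry1 was thus placed in the RORE arm, though its window held an E-box and an E'-box and no RORE core. Per1 and Nr1d2, with a RORE core in a window, were in the other arm. The difference between the arms was 0.30 and -0.08 in the saline libraries against 0.68 and -0.02 after treatment. The groups overlapped, and the treated libraries differed by 0.70 while the group means differed by 0.22. Without cmLumiOpto/PARPi replicate 1 that difference of means was -0.13, of opposite sign, and without replicate 2 it was 0.57. Each gene of an arm weighed the same, however few its counts. Hlf ranged from 13 to 96 counts per library, and Npas2 from 7 to 16. From treated replicate 1 to treated replicate 2 Hlf moved by -2.09 and Npas2 by 1.04 on the log2 scale. Both moves add to the difference of 0.70. In the E-box and D-box arm Per2 moved by -0.79 and Nr1d1 the other way, by 0.83. The arms were not computed without Hlf and Npas2, nor without Cry1.

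**Figure D3:**
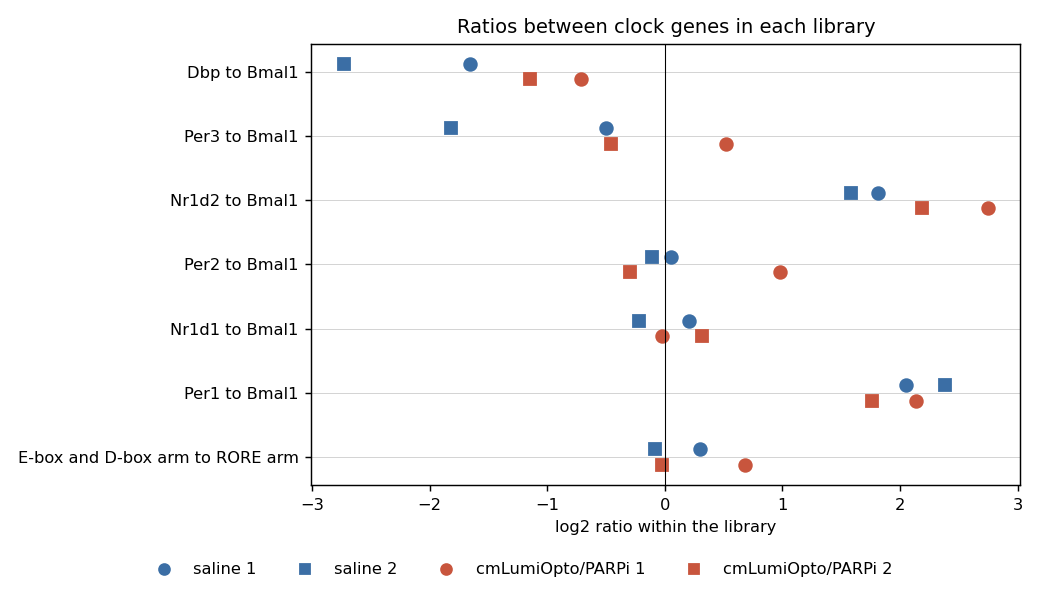
Log2 ratio between 2 clock genes, or between the mean log2 CPM of the E-box and D-box arm and of the RORE arm, within each library (horizontal axis), saline in blue and cmLumiOpto/PARPi in red, circles for replicate 1 and squares for replicate 2. Red points lie to the right of blue points for Dbp, Per3 and Nr1d2 over Bmal1, and the colours overlap in the other 4 rows.

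Other transcription factors of the clock were taken from a list of 11 genes, of which 10 were tested and Rorb had 0 counts in every library. None passed an adjusted p of 0.05 in the edgeR fit, and the median log2 fold change was -0.32. An unadjusted p under 0.05 was reached by 2 of the 10, both lower. Of all genes, 12% reached it lower and 21.2% in either direction. Bhlhe41 (DEC2), a repressor that competes for E-boxes, had 86.4 and 76.5 CPM in the saline libraries and 39.8 and 52.7 CPM after treatment (log2 fold change -0.82, standard error 0.18, adjusted p = 0.138 from edgeR). Bhlhe41 passed with DESeq2 on the same 15167 genes, as did 6.67% of all genes. It also passed with edgeR without the filter on low counts, as did 7.86% of 25435 genes. The paralog Bhlhe40 (DEC1), which also responds to hypoxia and growth signals, had 232 and 220 CPM against 102 and 173 CPM (log2 fold change -0.72, adjusted p = 0.203 from edgeR). In both the treated libraries lay below the saline libraries. Nfil3, the repressor at D-boxes, had 47.2 and 55.6 CPM against 29.5 and 46.8 CPM (adjusted p = 0.360), and Rora, an activator at ROREs, had 14.7 and 8.65 CPM against 10.2 and 8.66 CPM (adjusted p = 0.614). The D-box activators Tef and Hlf, relatives of Dbp, had log2 fold changes of 0.14 and 0.59 with overlapping groups.

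The list of clock kinases, phosphatases and ubiquitin enzymes had the highest share of genes without overlap among these lists. All 19 genes were tested and none passed an adjusted p of 0.05 in the edgeR fit. In 14 of them (73.7%, against 55.2% of all genes) the groups did not overlap, 11 lower and 3 higher after treatment. Of all genes, 27.8% were lower and 27.4% higher without overlap. An unadjusted p under 0.05 was reached by 5 lower genes and 1 higher gene. Of all genes, 12% reached it lower and 9.21% higher, 21.2% in either direction. The higher gene was Prkaa2 (9 and 4 counts in the saline libraries, 45 and 19 after treatment). Gsk3b, a kinase that phosphorylates several clock proteins among many other targets, had 109 and 122 CPM in the saline libraries and 61.3 and 66.7 CPM after treatment (log2 fold change -0.85, standard error 0.14, adjusted p = 0.138). Huwe1, a large ubiquitin ligase, had 322 and 407 CPM against 191 and 202 CPM (log2 fold change -0.89, adjusted p = 0.138, and -0.48 with a gene length offset). Gsk3b and Huwe1 passed with DESeq2 on the same 15167 genes, as did 6.67% of all genes. Both also passed with edgeR without the filter on low counts, as did 7.86% of 25435 genes. Csnk1e, casein kinase 1ε, which phosphorylates PER proteins, had 66.7 and 74.8 CPM against 42.9 and 52.1 CPM (log2 fold change -0.58, adjusted p = 0.158). Usp7, a deubiquitinase that stabilizes CRY1, had 160 and 187 CPM against 121 and 129 CPM (log2 fold change -0.47, adjusted p = 0.168). The median log2 fold change of the list was -0.27, and -0.14 with a gene length offset. Its median absolute log2 difference between libraries of a group was 0.17 in both groups, against 0.245 (saline) and 0.25 (treated) over all genes.

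Among 12 clock-controlled outputs none passed an adjusted p of 0.05 in the edgeR fit, and 3 had an unadjusted p under 0.05, all lower. Of all genes, 12% reached it lower and 21.2% in either direction. Tsku, a secreted signalling inhibitor, had 25.4 and 23.8 CPM in the saline libraries and 14.7 and 18.1 CPM after treatment (adjusted p = 0.191). Noct, the nocturnin gene, had 52.2 and 39.9 CPM against 27.6 and 34.5 CPM (adjusted p = 0.205), and Wee1, the E-box-driven kinase that holds back mitosis, had 45.2 and 68.4 CPM against 38.2 and 37.6 CPM (adjusted p = 0.219). Coq10b had 14.9 and 18.5 CPM against 24.2 and 19.3 CPM (adjusted p = 0.363). The groups did not overlap in 6 of the 12 genes (50%, against 55.2% of all genes), 3 in each direction, and the median log2 fold change was -0.05.

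**Figure D4:**
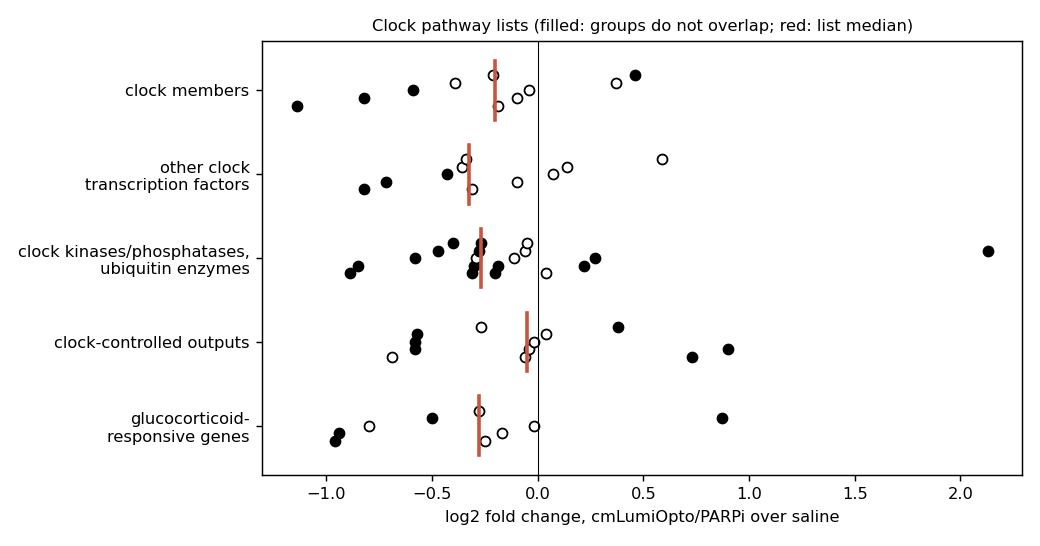
Fitted log2 fold change, cmLumiOpto/PARPi over saline (horizontal axis), of each tested gene in the clock genes and 4 lists of related genes, filled where the libraries of the groups do not overlap. Red bars mark list medians of -0.20, -0.32, -0.27, -0.05 and -0.28 from top to bottom.

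Since glucocorticoids induce Per1, 9 glucocorticoid-responsive genes were set beside it. None of them passed an adjusted p of 0.05 in the edgeR fit. Fkbp5, Cebpd and Klf9 passed it with DESeq2 on the same 15167 genes, where 6.67% of all genes passed. The same 3 genes passed with edgeR without the filter on low counts, where 7.86% of 25435 genes passed. Of the other lists, Bhlhe41, Gsk3b and Huwe1 also passed in both of these settings. Klf9, a transcription factor induced by the glucocorticoid receptor, had 53.1 and 95.5 CPM in the saline libraries and 39.0 and 37.5 CPM after treatment (log2 fold change -0.96, standard error 0.28, adjusted p = 0.166). Fkbp5, a chaperone that restrains the receptor, had 269 and 399 CPM against 149 and 200 CPM (log2 fold change -0.94, standard error 0.25, adjusted p = 0.147). In both, as in Per1, saline replicate 2 was the highest library and both treated libraries lay below both saline libraries. Cebpd, a transcription factor gene, lay the other way, with 25.4 and 16.6 CPM in the saline libraries and 41.8 and 35.3 CPM after treatment (log2 fold change 0.87, adjusted p = 0.158). Mt2, a metallothionein gene, had 8.03 and 25.4 CPM against 6.79 and 12.3 CPM (adjusted p = 0.456). Tsc22d3, which encodes GILZ, a widely used readout of the receptor, overlapped, with 96.0 and 133 CPM against 130 and 96.8 CPM (log2 fold change -0.02, adjusted p = 0.972). Of the 9 genes, 8 were higher in saline replicate 2 than in saline replicate 1, Cebpd being the exception. So were 14 of the 19 clock kinases, phosphatases and ubiquitin enzymes, 3 of the 10 other clock transcription factors and 4 of the 12 outputs. The share over all genes was not determined. The groups did not overlap in 4 of the 9 genes (44.4%, against 55.2% of all genes). What sets the levels of these genes was not tested.

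**Figure D5:**
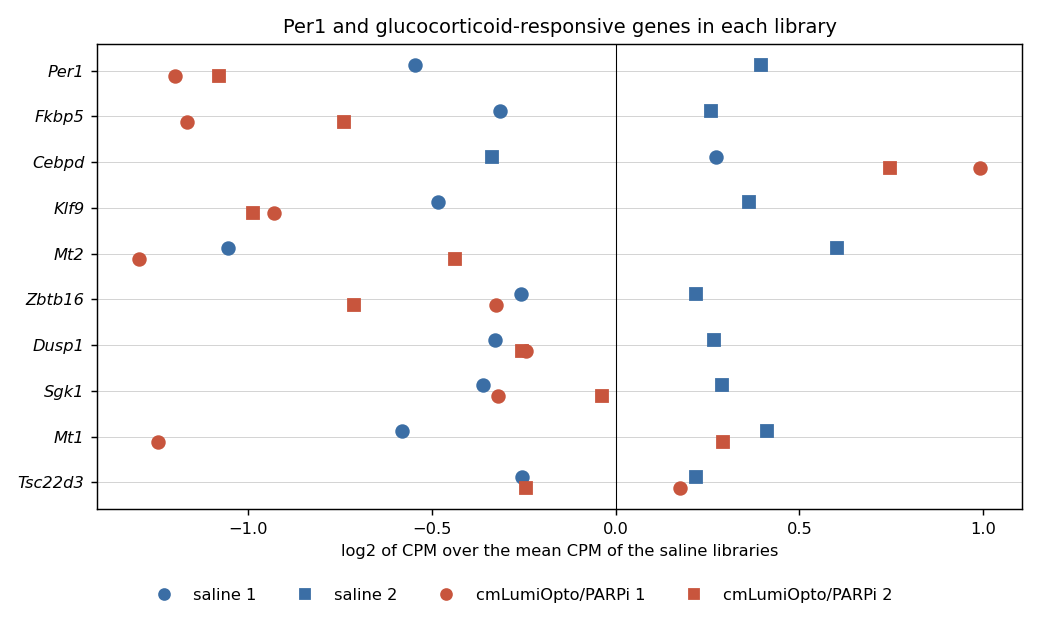
Log2 of the CPM in each library over the mean CPM of the saline libraries (horizontal axis) for Per1 and 9 glucocorticoid-responsive genes, saline in blue and cmLumiOpto/PARPi in red, circles for replicate 1 and squares for replicate 2. Saline replicate 2 lies to the right of saline replicate 1 in every row but Cebpd, and both red points lie left of both blue points in Per1, Fkbp5, Klf9 and Zbtb16.

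Gene length was related to the comparison across the whole table. Longer genes had lower log2 fold changes (Spearman's rho = -0.373 across 15167 genes, which are not independent replicates), and its median went from 0.31 among the shortest genes to -0.27 among the longest when the genes were split by length into 5 groups of like size. Clock and Bmal1, at 13727 and 7523 bases, belonged to the longest group and Dbp and Nr1d1, at 2993 and 3077 bases, to the group after the shortest. The medians of these groups were -0.27 and 0.15, so the ratio of Dbp to Bmal1 sets genes with different length trends against each other. Per3 was in the same group as Bmal1. The ratios were not computed with a length offset. With an offset for gene length in each library, Clock had a log2 fold change of 0.08 and so changed sign. Bmal1 had -0.69 (adjusted p = 0.379), Dbp 0.28 (adjusted p = 0.722), Nr1d1 -0.76 (adjusted p = 0.362) and Per3 0.56 (adjusted p = 0.460). Per1 had -1.12 (adjusted p = 0.290).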

How the data were processed

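Counts per gene were deposited by the authors without normalization, 1 column for each of the 4 libraries. Poly-A libraries had been sequenced at Novogene and mapped with HISAT2. The methods of the study name GRCm38, while the submitters' processing notes name mm39, and only 2.83% of 52073 genes had their start and end of GENCODE M21 (GRCm38). Gene positions are thus those of the table, and promoter positions those of GRCm38.p6. The counting tool and its use of strand were not given in the sources used here. The methods name lung tissue, whereas the labels name tumour cells harvested from lungs.

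Groups were compared with edgeR 4.0.16 (TMM scaling, glmQLFit and glmQLFTest at their defaults, filterByExpr at its minimum count of 10, Benjamini-Hochberg over all tested genes, threshold 0.05). A standard error is the log2 fold change over the square root of F, and 95% intervals use the fit's degrees of freedom. Log2 CPM for ratios used a prior count of 2. TPM was computed from counts and the deposited gene length. Alternatives were DESeq2 1.42.0 (on all genes with a count and, added after seeing the data, on the filtered genes), another quasi-likelihood option, other scalings, no filter, the replicate block, a length offset (loess, span 0.5) and leaving out each library. The fits were tested on simulated data. Totals of 15263375 to 16755228 counts set the precision, 3 counts being 0.173 to 0.204 CPM, for counting error only. The chi-square of replicate counts, divided by its degrees of freedom, was 17.5 (saline) and 29.9 (treated), so replicates were distinct libraries. All 10 members are named, and of each list up to 4 genes with the smallest p. Prkaa2, Tef, Hlf, Tsc22d3, Rorb and Zbtb16 were named after their values were seen. The members and lists were chosen with earlier results of these data known.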

Additional observations from a re-analysis of the deposited data

How the results depend on the processing

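The counts of calls depended on the test and on the filter. Against 0 genes, 0 clock genes and 0 of the other listed genes past an adjusted p of 0.05 in the edgeR fit, DESeq2 gave 965, 1 (Per1) and 6 on 25435 genes with a count, and 1011, 1 (Per1) and 6 on the 15167 genes of the edgeR fit, a setting chosen after seeing the data. The edgeR fit without a filter on low counts gave 2000, 2 (Per1 and Bmal1) and 11. With the replicate block they were 1822, 2 (Per1, adjusted p = 0.0230, and Bmal1, adjusted p = 0.0459) and 9, and with the replicate block and the gene length offset together 1234, 1 (Per1) and 9. Bhlhe41, Gsk3b, Fkbp5, Cebpd and Klf9 were called in each of these 5 settings. Huwe1 was called in all of them but the replicate block with the gene length offset. The settings called 3.79%, 6.67%, 7.86% (of 25435 genes), 12% and 8.14% of all genes, in that order. Same-numbered libraries share only a number in the labels, though their deviations correlated across genes (Spearman's rho = 0.298). Leaving out each library in turn gave 0 to 31 genes and 0 to 1 clock genes, the 1 being Per1 without saline replicate 1. The lone library left in a group was then assumed to vary like the other group. The other scalings, the other quasi-likelihood option and the length offset alone gave 0 calls. The cause of these changes was not tested.

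Of the fitted log2 fold changes of the 10 clock genes under these alternatives, 6 had the opposite sign, in 4 genes. Cry1 had 0.05 without cmLumiOpto/PARPi replicate 1 (range over left-out libraries -0.28 to 0.05). Cry2 had 0.05 without saline replicate 2 (-0.42 to 0.05). Nr1d2 had 0.03 with library totals and 0.15 without saline replicate 2 (-0.22 to 0.15). Clock had 0.08 with the length offset, alone and with the replicate block. Per1 and Bmal1 stayed negative in all 13 alternatives (-1.55 to -0.61 and -1.11 to -0.49), and Dbp stayed positive (0.22 to 0.71). The number of clock genes without overlap was 4 with the other scalings and without the filter. It was 6 with the length offset alone, a setting for which the share over all genes was not determined. Of the 10 clock genes, depth limits Dbp most, at 50 to 96 counts in a library. Npas2, used in 1 of the ratios and in the RORE arm, had fewer, at 7 to 16.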
